A study of Rattus norvegicus with 8 samples.

Results

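The 3 fibrinogen chain genes are Fga, Fgb and Fgg, which encode the Aα, Bβ and γ chains of fibrinogen. They were taken as the probe sets that the array's annotation names with the single symbol Fga, Fgb or Fgg. Each symbol had 1 probe set, so the chains are 3 of the 18166 genes measured with a single symbol. Fibrinogen is a plasma protein made chiefly by hepatocytes, and thrombin cuts short peptides from its Aα and Bβ chains so that it polymerises into fibrin, which plasmin later dissolves. In liver the 3 genes are transcribed together in the acute phase response, driven by cytokines of the interleukin 6 family through STAT3 together with C/EBP factors. Tubular epithelial cells of injured rodent kidney are also known to transcribe them.

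Expression was measured on Affymetrix whole-transcript arrays in kidneys of male Wistar rats 10 weeks old. There were 4 arrays labelled medulla and 4 labelled cortex. All 8 arrays carry one and the same treatment, ethylene glycol given every day and vitamin D given every second day for 1 week, and none is labelled as untreated. The body turns ethylene glycol into oxalate, and adding vitamin D is a known way of raising crystals of calcium oxalate in the kidneys of rats. The study's title concerns the alpha chain and crystal nuclei, and its design text keeps genes that vary at least 2-fold within each region. Which arrays that selection contrasted is not in the labels, so no such contrast was made here. A wide range of Fga on these arrays is not independent of the study's own selection. Nothing in the labels ties an array to an animal, so the tests below measure only the spread between arrays, which may be technical. In whole tissue, fewer cells of a type and less RNA per cell cannot be told apart.

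The array medians lay between 5.09 and 5.12 on the log2 intensity scale and the lower quartiles between 4.44 and 4.48. The replicate 4 array of each region stood apart from the other 3. Of the 402 genes with a range of at least 2-fold among the arrays of both regions, 171 were highest on both replicate 4 arrays and 186 were lowest there. Without these 2 arrays 45 genes had such a range. The replicate numbers follow the order of the labels and pair no arrays across regions. The region labels were set against marker genes. Aqp3, a collecting duct water channel, read 9.20, 8.31, 8.22 and 7.01 log2 units on the medulla arrays and 8.20, 7.77, 7.49 and 6.42 on the cortex arrays. Nphs1, which encodes the podocyte protein nephrin of the cortical glomeruli, read 5.87, 6.73, 6.12 and 6.07 on the medulla arrays and 6.23, 6.82, 7.15 and 6.77 on the cortex arrays. The regions overlapped for both genes. Of the 9 measured inner medulla and collecting duct genes 7 averaged higher in medulla, beside 8311 of all 18166 genes. Of these 9 genes 1 did not overlap between the regions, as was the case for 2.83% of all genes. This was the urea transporter gene Slc14a2, named after its values were seen, which read 7.42, 6.15, 6.49 and 6.76 on the medulla arrays and 5.88, 4.95, 5.05 and 4.80 on the cortex arrays (difference 1.53 ± 0.32 SE, limma unadjusted p = 0.0017 and adjusted p = 0.875). Of 14 proximal tubule genes 1 and of 5 podocyte genes 0 averaged higher in medulla. All 5 measured podocyte markers read at least 5.73 on every array, medulla included, which is above the array medians.

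The 3 genes lie next to each other on rat chromosome 2 in the order Fgg, Fga, Fgb, with Fgb on the opposite strand. The 250 bases before the transcription start of each are shown because the chains shared a profile over the arrays and this is the stretch where the acute phase signal is known to act. The sequences are those of RefSeq, build GRCr8, at chr2:170652833-170653082 on the plus strand for Fgg, chr2:170671919-170672168 on the plus strand for Fga and chr2:170700876-170701125 on the minus strand for Fgb, each written in the direction of transcription. Capitals mark CTGGGA, the core of the interleukin 6 response element known from rat acute phase genes, or its reverse complement TCCCAG.
Fgg: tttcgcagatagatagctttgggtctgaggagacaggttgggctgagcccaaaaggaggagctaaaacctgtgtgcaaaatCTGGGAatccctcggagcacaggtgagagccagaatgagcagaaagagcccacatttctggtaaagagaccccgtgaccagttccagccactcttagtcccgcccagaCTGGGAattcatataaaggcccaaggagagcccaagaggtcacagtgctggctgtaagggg
Fga: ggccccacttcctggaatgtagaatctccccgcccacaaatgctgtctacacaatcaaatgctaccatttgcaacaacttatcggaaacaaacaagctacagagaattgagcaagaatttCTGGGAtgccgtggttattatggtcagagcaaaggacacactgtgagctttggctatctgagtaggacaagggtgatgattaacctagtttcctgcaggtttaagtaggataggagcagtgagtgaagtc
Fgb: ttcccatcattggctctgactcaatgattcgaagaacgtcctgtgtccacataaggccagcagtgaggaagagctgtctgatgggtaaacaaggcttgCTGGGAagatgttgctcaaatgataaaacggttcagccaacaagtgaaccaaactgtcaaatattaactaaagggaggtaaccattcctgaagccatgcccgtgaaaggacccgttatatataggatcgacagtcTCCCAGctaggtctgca
The Fgg window holds CTGGGA 2 times, starting at positions -169 and -61, where -1 is the last base before the transcription start, and each is followed by a further A. The Fga window holds it once, at -130. The Fgb window holds CTGGGA at -152, also followed by a further A, and its reverse complement at -17. RefSeq lists a further Fga start just downstream and, in its gene table, a longer Fgg model that begins inside the window shown. On either strand, CTGGGA occurs in 25.73% of the 33469 rat promoter windows of this length, and 4.22% hold it at least 2 times. CTGGGAA, which contains CTGGGA, occurs in 9.56% of the windows. A match is a stretch of letters and not a measured binding site.

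The regions were compared first, with medulla set against cortex. None of the 3 chains was called as different between them. Fga, the alpha chain named in the study's title and the one that carries the long flexible C-terminal region of fibrinogen, read 5.36, 5.66, 7.04 and 9.75 log2 units on the medulla arrays and 5.75, 6.00, 6.61 and 10.01 on the cortex arrays. The regions overlapped almost completely, with 1 high array, 1 intermediate array and 2 low arrays in medulla, and 1 high array above 3 lower ones in cortex. In linear intensity the highest Fga arrays read 859 in medulla and 1029 in cortex, and the lowest 40.9 in medulla and 53.8 in cortex. On the highest arrays 98.99% of probe sets in medulla and 99.25% in cortex were dimmer than that of Fga. Fga averaged 6.95 ± 2.00 in medulla and 7.09 ± 1.98 in cortex (SD, n = 4 each), a difference of -0.14 ± 1.25 (SE; limma adjusted p = 0.99 over all genes).

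Fgb encodes the Bβ chain, whose synthesis is considered rate-limiting for fibrinogen assembly in human hepatoma cells. Fgb read 5.26, 5.05, 6.53 and 9.59 log2 units on the medulla arrays and 5.06, 5.27, 6.15 and 9.89 on the cortex arrays. Again the replicate 4 arrays were far above the others, replicate 3 came next in both regions, and the regions overlapped. In linear intensity Fgb spanned 33.0 to 772 in medulla and 33.4 to 952 in cortex, and its low arrays lay at the array medians. Fgb averaged 6.61 ± 2.10 in medulla and 6.59 ± 2.25 in cortex (SD, n = 4 each), a difference of 0.01 ± 1.37 (SE; limma adjusted p = 1.0).

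Fgg encodes the γ chain, which holds the platelet integrin binding site and cross-linking residues at its C-terminus. Fgg read 4.48, 4.49, 5.49 and 7.86 log2 units on the medulla arrays and 4.49, 4.46, 4.77 and 7.64 on the cortex arrays. In linear intensity Fgg spanned 22.2 to 232 in medulla and 22.0 to 199 in cortex. The 4 lowest arrays, 2 in each region, lay at the lower quartile of their arrays, so the true range of Fgg may be wider than the one measured. Fgg averaged 5.58 ± 1.59 in medulla and 5.34 ± 1.54 in cortex (SD, n = 4 each), a difference of 0.24 ± 0.99 (SE; limma adjusted p = 0.978).

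With limma, 0 of the 3 chains were called at an adjusted p under 0.05, and neither was any other gene (0.0% of 18166, smallest adjusted p 0.875), while 971 genes (5.35%) had an unadjusted p under 0.05. The limma unadjusted p was 0.915 for Fga, 0.993 for Fgb and 0.814 for Fgg. Exact two-sided permutation tests over the 8 arrays gave p = 0.857 for Fga, 1.0 for Fgb and 0.714 for Fgg, where 0.0286 is the smallest p the design allows. The values of 2.83% of all genes did not overlap between the regions, and none of the chains was among them. The 95% intervals of the medulla minus cortex difference ran from -3.06 to 2.78 for Fga, from -3.18 to 3.20 for Fgb and from -2.06 to 2.54 for Fgg, so differences of several fold in either direction were not detectable with these arrays. The direction rested on single arrays. Without medulla replicate 4 the differences were -1.07, -0.98 and -0.52 for Fga, Fgb and Fgg, and without cortex replicate 4 they were 0.83, 1.11 and 1.01.

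**Figure D1:**
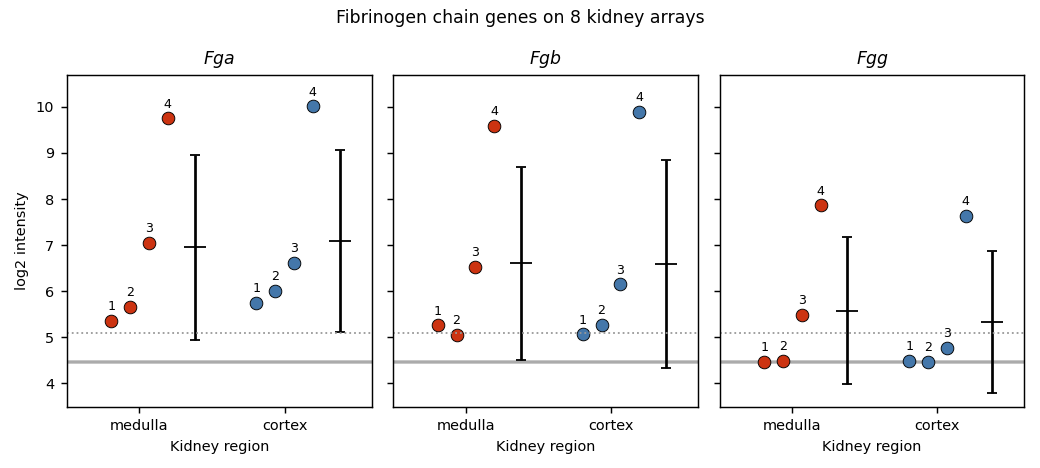
Log2 intensity of Fga, Fgb and Fgg on each of the 4 medulla arrays (red) and 4 cortex arrays (blue), numbered by replicate, with the region's mean and SD as a horizontal dash and bar at its right. The grey band is the lower quartile of the arrays and the dotted line their median: the replicate 4 arrays reach 7.64 to 10.01, while 4 Fgg points lie on the band.

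**Figure D2:**
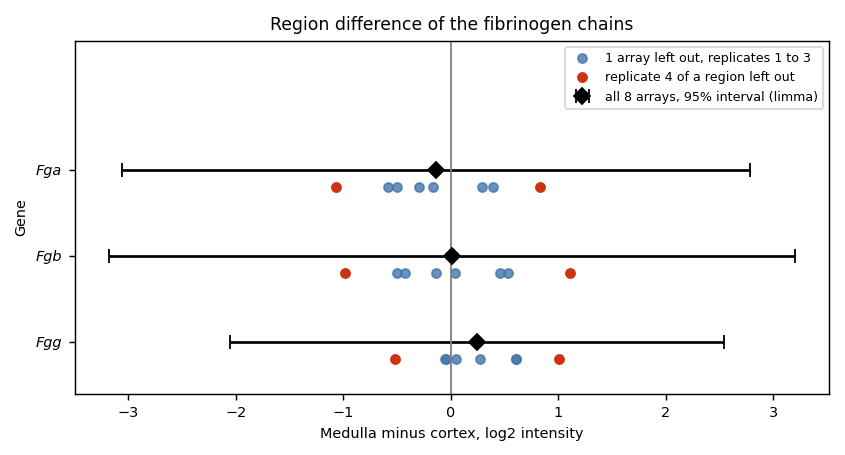
Medulla minus cortex difference in log2 intensity for each chain, with all 8 arrays (black diamond, bar for the 95% interval from limma) and with 1 array left out (points below it). The intervals span 0 for all 3 chains, and leaving out replicate 4 of a region (red) gives the farthest values, -1.07 and 0.83 for Fga.

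Within each region, the chains were among the most variable genes measured. The range, the highest minus the lowest log2 value among the 4 arrays of a region, was 4.39 in medulla and 4.26 in cortex for Fga, which equals 21.0-fold and 19.1-fold. For Fgb the range was 4.55 in medulla and 4.83 in cortex, or 23.4-fold and 28.5-fold. For Fgg it was 3.38 in medulla and 3.18 in cortex, or 10.4-fold and 9.06-fold. All 3 chains passed a 2-fold range in both regions, as did 2.21% of all genes. By the smaller of its 2 ranges, Fgb ranked 3, Fga 4 and Fgg 8 among the 18166 genes. These ranges describe the arrays and carry no test, and the study's own selection used such changes.

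Most of each range came from the replicate 4 arrays. In medulla the step between the highest and the next array was 2.70 for Fga, 3.07 for Fgb and 2.37 for Fgg, and in cortex it was 3.40, 3.75 and 2.87 in the same gene order. Without the replicate 4 array of each region the ranges were 1.69 in medulla and 0.86 in cortex for Fga, 1.48 and 1.08 for Fgb, and 1.01 and 0.31 for Fgg. Fgb then still passed 2-fold in both regions, while Fga and Fgg passed it only in medulla.

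The chains kept close to each other over the arrays. The Pearson r over the 8 arrays was 0.994 between Fga and Fgb, 0.987 between Fga and Fgg and 0.990 between Fgb and Fgg. These correlations lean on the replicate 4 arrays, and the values of one array share its RNA and its normalization. Over the other 6 arrays r was 0.934 for Fga and Fgb, 0.879 for Fga and Fgg, and 0.904 for Fgb and Fgg. Each chain was then expressed as its deviation from its own mean over the arrays. On medulla replicate 3 the 3 deviations lay within 0.10 log2 units of each other, and on cortex replicate 4 they were up to 1.12 apart, with Fgb at 3.29, Fga at 2.99 and Fgg at 2.18. The order of the arrays was also nearly shared. Fgb differed from Fga only in the order of medulla replicates 1 and 2, and Fgg only in the order of cortex replicates 1 and 2. Among all genes 0.93% had the same order of arrays as Fga in both regions, and 0.176% had it together with a 2-fold range in both regions.

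The genes beside the cluster on chromosome 2 did not share the size of these ranges. Lrat, which encodes the enzyme that esterifies retinol and is the nearest measured gene on the Fgg side, read 5.56, 5.09, 6.15 and 6.59 log2 units on the medulla arrays and 5.03, 4.90, 4.66 and 5.53 on the cortex arrays. Its range was 1.49 in medulla and 0.87 in cortex, and it was highest on the same 2 arrays as the chains. Plrg1, a component of the spliceosome on the Fgb side, read 7.11, 7.21, 7.35 and 7.54 on the medulla arrays and 7.28, 7.29, 7.28 and 7.48 on the cortex arrays, ranges of 0.42 and 0.21. Rbm46, an RNA-binding protein gene of the germ line, stayed between 4.80 and 4.93 in medulla and between 4.72 and 4.90 in cortex. The r to the mean profile of the chains over the 8 arrays was 0.63 for Lrat, 0.92 for Plrg1 and 0.70 for Rbm46.

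The mean fibrinogen profile, the average of the 3 chains' deviations, was then set against every gene. Closest and most opposite below mean by r among the 399 other genes with a 2-fold range in both regions. Genes with smaller ranges were not ranked, among them Cdkn1a at r = 0.988 over 8 arrays. The 171 genes with a 2-fold range in both regions that were highest on the arrays where Fga is highest (0.941% of all genes) are called followers below, and 168 of them are not fibrinogen chains. Those lowest on the same arrays number 186 (1.02%) and are called opposite. With arrays left out, followers and opposite genes were counted anew on the arrays where Fga was highest among those left. Replicate 3 of a region thus took the place of its replicate 4. Without medulla replicate 4 there were 33 followers and without cortex replicate 4 there were 11. Promoter windows were matched for 139 of the followers, and 33.09% of these held CTGGGA, against 27.4% of the 14564 measured genes with a window. CTGGGAA stood in 10.07% of the followers' windows and in 9.53% of the measured genes' windows.

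Among the genes ranked by r, Cemip had the profile closest to the chains (r = 0.998 over 8 arrays, 0.979 over 6). It encodes a protein that takes part in the breakdown of hyaluronan. Cemip read 5.03, 4.99, 5.68 and 7.53 log2 units on the medulla arrays and 4.89, 5.07, 5.36 and 7.46 on the cortex arrays. Nap1l1, a histone chaperone gene, came next (r = 0.996 over 8 arrays, 0.985 over 6) and had exactly the array order of the mean profile. Nap1l1 read 7.50, 7.59, 8.03 and 8.80 on the medulla arrays and 7.61, 7.68, 7.87 and 8.96 on the cortex arrays, a much smaller range of 1.29 in medulla and 1.35 in cortex. The other genes among the 12 closest were Ywhah, an adapter that binds phosphorylated proteins, Slc39a14, a zinc and iron importer, the cytokine gene Lif, Rrm2, a ribonucleotide reductase subunit, and Slc34a2, a sodium phosphate cotransporter. They also included the RNA helicase gene Ddx52, Mab21l3, the chloride channel gene Clic1, Tnfrsf12a, the receptor of the cytokine TWEAK, and the chemokine gene Cxcl11. Over all 12 genes r lay between 0.984 and 0.998 on 8 arrays, and the ranges, between 1.10 and 3.46, were all smaller than those of Fga and Fgb in the same region.

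The order of likeness leaned on the replicate 4 arrays. The ranking over the 6 other arrays kept the genes chosen for a 2-fold range over all 8 arrays. Without the replicate 4 arrays 45 genes had such a range, against 402 with them, so this ranking is not free of those arrays. By r over the 6 other arrays Havcr1, the kidney injury molecule gene, was closest at 0.996. Of the 12 genes above 5 were still among the 12 closest. By Spearman's rho over 8 arrays 3 of them were. The chains taken alone also differed in their closest gene. Nap1l1 was closest to Fga (r = 0.999 over 8 arrays), Cemip to Fgb (r = 0.996) and Lif to Fgg (r = 0.999). The 6 genes with the most opposite profiles were Gfra3, a co-receptor gene for a neurotrophic factor, the calcium-binding protein genes Caln1 and Rgn, Pamr1, the uromodulin gene Umod and Acss2, an acetyl-CoA synthetase gene. Rgn read 9.53, 9.76, 8.86 and 7.46 log2 units on the medulla arrays and 9.86, 9.99, 9.44 and 7.22 on the cortex arrays, with r = -0.986 to the mean profile. Every one of these 6 genes was lowest on both replicate 4 arrays.

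**Figure D3:**
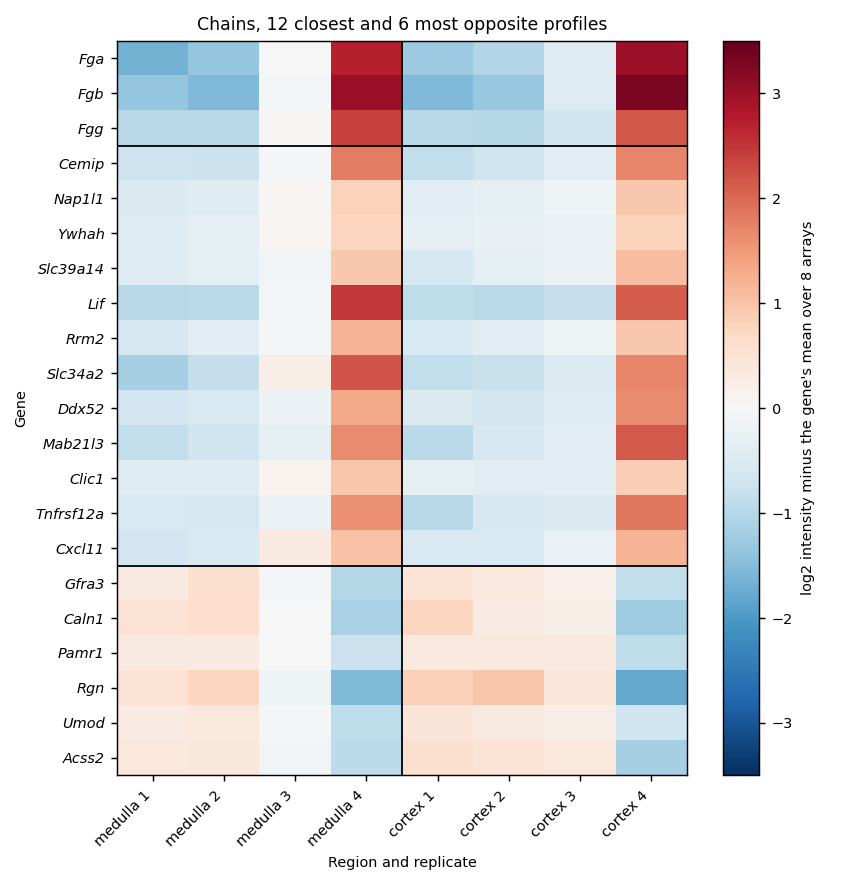
Log2 intensity minus the gene's mean over the 8 arrays (colour, red above and blue below the mean) for the 3 chains, the 12 closest and the 6 most opposite profiles, with medulla arrays at the left and cortex arrays at the right. The closest and most opposite were taken among genes with a 2-fold range in both regions. The medulla 4 and cortex 4 columns carry the strongest colours in every row. The strongest is Fgb on cortex 4, at 3.29 above its mean.

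Genes of fibrinogen control, assembly and use were then counted from lists, against the backgrounds of 0.941% followers and 1.02% opposite genes. In none of these lists was a gene called between medulla and cortex. The interleukin 6 family comes first because it drives the chain genes in liver. Of 22 measured genes of this family and of STAT3 signalling 7 were followers (31.8%) and 0 were opposite. The 7 were the cytokine genes Lif, Clcf1 and Il11, the oncostatin M receptor gene Osmr, the feedback inhibitor gene Socs3, and Bcl3 and Junb, which are known as STAT3 targets. The median over the list of the smaller of a gene's 2 ranges was 0.49 log2 units, beside 0.17 over all genes. With medulla replicate 4 left out 1 of the list was a follower, and with cortex replicate 4 left out 0 were.

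Lif, which signals through gp130 and STAT3, read 4.96, 4.99, 5.89 and 8.42 log2 units on the medulla arrays and 5.05, 4.98, 5.14 and 8.05 on the cortex arrays. Osmr read 6.82, 6.70, 7.98 and 9.32 on the medulla arrays and 6.95, 6.86, 6.66 and 9.06 on the cortex arrays. Socs3 read 5.51, 5.52, 6.30 and 8.00 on the medulla arrays and 5.37, 5.49, 5.33 and 7.51 on the cortex arrays. All 3 were high on replicate 4 of each region and on medulla replicate 3 above the other medulla arrays, whereas cortex replicate 3, where Fga and Fgb lay above cortex replicates 1 and 2, showed little or no excess. The signalling genes themselves had smaller ranges. Stat3 read 8.38, 8.35, 8.56 and 9.05 on the medulla arrays and 8.38, 8.21, 8.24 and 8.90 on the cortex arrays. Il6st, which encodes gp130, read 8.33, 8.09, 8.80 and 8.85 on the medulla arrays and 8.34, 8.17, 8.07 and 8.58 on the cortex arrays. Il6 itself stayed between 4.55 and 4.73 in medulla and between 4.57 and 4.77 in cortex, below the array medians on every array.

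Of 12 measured genes for factors that act on the fibrinogen promoters 0 were followers and 0 were opposite, beside 0.941% and 1.02% of all genes. Cebpb, an acute phase transcription factor gene, read 5.64, 5.41, 5.66 and 5.90 on the medulla arrays and 5.54, 5.65, 5.83 and 6.28 on the cortex arrays. Its r to the mean profile was 0.85, with ranges of 0.49 in medulla and 0.74 in cortex. Hnf4a, a hepatocyte and proximal tubule factor, ran the other way at r = -0.71, with ranges of 0.65 in medulla and 0.62 in cortex. Ppara and Ppargc1a had r of -0.91 and -0.86. These values lean on the replicate 4 arrays. Over the 6 other arrays r was 0.57 for Cebpb, -0.39 for Hnf4a, -0.41 for Ppara and 0.40 for Ppargc1a. Of 16 measured genes for folding and export of secreted proteins 0 were followers, again beside 0.941% of all genes. Pdia4 and Hsp90b1, which act in the endoplasmic reticulum, had r of 0.96 and 0.92 to the mean profile but ranges of only 0.55 and 0.56 in medulla and 0.44 and 0.33 in cortex.

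Other acute phase genes were mixed. Of 18 measured, 3 were followers (16.7%): the complement gene C3, the protease inhibitor gene Serpina3n and the lipopolysaccharide-binding protein gene Lbp. C3 read 5.79, 5.88, 7.07 and 8.72 log2 units on the medulla arrays and 5.92, 5.85, 6.08 and 8.32 on the cortex arrays. Cp, which encodes ceruloplasmin, passed the 2-fold range but was highest on other arrays, at 8.93 on medulla replicate 3 and 7.97 on cortex replicate 1. Of the 18 genes 8 (44.4%) were below the array medians on all 8 arrays, beside 33.7% of all genes.

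**Figure D4:**
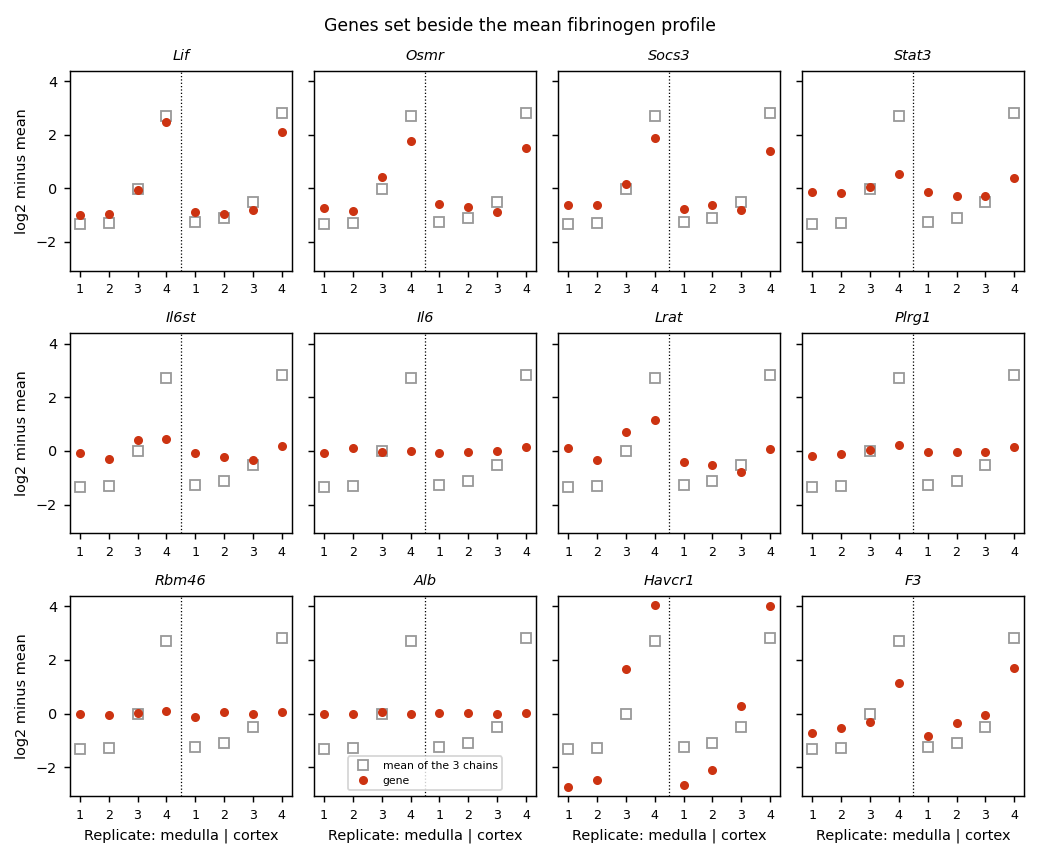
Log2 intensity minus the gene's mean over 8 arrays (red points) for 12 genes, beside the mean profile of the 3 chains (open grey squares), with the 4 medulla arrays left of the dotted line and the 4 cortex arrays right of it. Lif, Osmr, Socs3, Havcr1 and F3 are high on both replicate 4 arrays, while Il6, Rbm46 and Alb stay near 0.

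Among genes of thrombin generation 1 of 20 measured was a follower (5.0%). It was F3, which encodes tissue factor, the cell surface starter of coagulation. F3 read 7.57, 7.76, 7.97 and 9.44 log2 units on the medulla arrays and 7.45, 7.96, 8.22 and 9.98 on the cortex arrays, so replicate 4 was highest in both regions. F2, the prothrombin gene, read 5.83, 6.04, 6.21 and 5.73 on the medulla arrays and 5.75, 6.26, 6.83 and 6.45 on the cortex arrays, with no such step. F5, the cofactor gene, was lowest on both replicate 4 arrays, at 7.14 in medulla and 6.28 in cortex, without passing the 2-fold range in medulla (0.98).

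Of 17 measured genes for fibrin cross-linking and fibrin receptors 2 were followers (11.8%), Tgm2, which encodes a transglutaminase, and Fn1, which encodes fibronectin. Tgm2 read 8.22, 8.15, 7.67 and 8.86 log2 units on the medulla arrays and 8.04, 8.22, 8.08 and 9.28 on the cortex arrays, so medulla replicate 3, the second highest for the chains, was its lowest medulla array. Fn1 spanned 7.77 to 9.69 in medulla and 7.06 to 8.71 in cortex, with r = 0.58 to the mean profile. Icam1, a leukocyte adhesion receptor that binds fibrinogen, missed the 2-fold range in medulla (0.99). Itgav and Itgb3, an integrin pair that binds fibrin, were not analysed here.

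Fibrinolysis had 2 followers of 13 measured genes (15.4%), Anxa2 and S100a10, whose products form a cell surface complex that binds plasminogen and its activator. S100a10 read 7.50, 7.51, 8.08 and 8.99 log2 units on the medulla arrays and 7.57, 7.43, 7.21 and 8.95 on the cortex arrays. Plau, the urokinase gene, read between 10.28 and 10.57 in medulla and between 10.07 and 10.39 in cortex. Plat, the tissue plasminogen activator gene, read 8.49, 8.52, 8.39 and 8.94 on the medulla arrays and 8.47, 8.31, 8.36 and 8.79 on the cortex arrays. Plg, the plasminogen gene, stayed between 4.76 and 4.92 in medulla and between 4.87 and 5.10 in cortex, below the array median on all 8 arrays.

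Of 15 measured genes whose products share the fibrinogen-like domain, 1 was a follower (6.67%). It was Angptl4, a lipoprotein lipase inhibitor gene, which read 5.35, 4.98, 5.62 and 7.81 log2 units on the medulla arrays and 4.69, 5.00, 5.26 and 7.80 on the cortex arrays. Fgl2, which encodes a prothrombin-cleaving membrane protein, had the same array order as the mean profile with smaller ranges of 0.96 in medulla and 0.93 in cortex. Fgl1, a liver protein gene, stayed between 4.29 and 4.32 in medulla and between 4.30 and 4.46 in cortex.

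**Figure D5:**
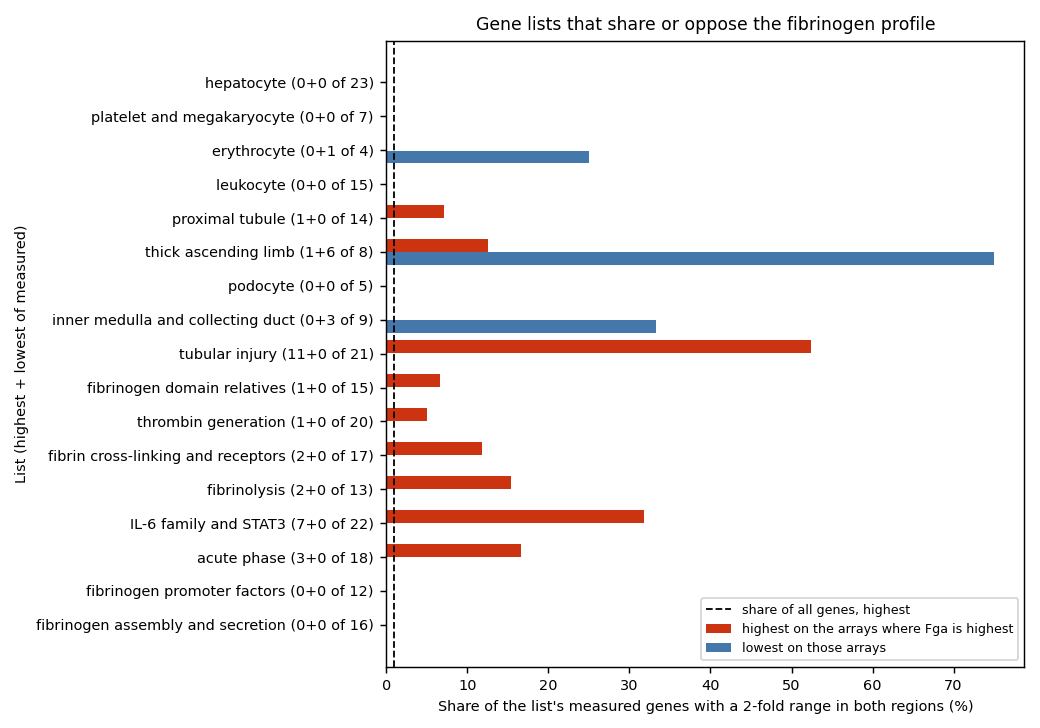
Share of each list's measured genes (percent, bars from 0) with a 2-fold range in both regions that are highest (red) or lowest (blue) on the arrays where Fga is highest, with the counts in brackets and the 0.941% of all genes as a dashed line. The longest red bars are tubular injury with 11 of 21 and the interleukin 6 family with 7 of 22, and the longest blue bar is thick ascending limb with 6 of 8.

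Markers of other cell types were read on the same arrays. Of 23 measured hepatocyte markers 0 passed the 2-fold range, which only 2.21% of all genes passed. Below the array medians on all 8 arrays lay 16 of the 23 (69.6%), beside 33.7% of all genes. On both replicate 4 arrays 3 of the 23 were highest, whatever their range, beside 17.0% of all genes. These were Hpx, Kng1 and Plg, with r to the mean profile of 0.89, 0.85 and 0.37 in that order. Hpx and Kng1 were named after their values were seen. Hpx read 5.02 on medulla replicate 4 and 5.17 on cortex replicate 4, and Kng1 read 4.57 and 5.05. The mean of the list lay between 4.91 and 5.03 in medulla and between 4.97 and 5.14 in cortex. Alb, the defining hepatocyte gene, stayed between 4.51 and 4.59 in medulla and between 4.51 and 4.57 in cortex. Fetub had the largest smaller range of the hepatocyte markers (0.69). It was 5.89 on medulla replicate 4, below 6.52 on medulla replicate 2, and 6.88 on cortex replicate 4, its highest cortex array. Of 7 measured platelet and megakaryocyte markers 0 passed the range, again beside 2.21% of all genes, and the list mean lay between 4.81 and 4.97 in both regions. Itga2b, the platelet integrin gene, was lowest on both replicate 4 arrays, at 5.10 in medulla and 5.06 in cortex. The part of hepatocytes and of platelets in the chain levels was not tested.

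Erythrocyte and leukocyte lists held no follower, beside 0.941% of all genes. Lists of 4 and 15 measured genes are too short to show a lack of followers. Of 4 measured genes of the erythrocyte list 1, Slc4a1, was opposite, at 9.62, 8.80, 7.97 and 7.31 log2 units on the medulla arrays. A further 2 passed the 2-fold range and were neither. Among them was the haemoglobin gene Hbb-b1, with r = -0.75 to the mean profile. It read 6.70, 7.80, 6.43 and 6.48 on the medulla arrays and 7.80, 7.80, 7.26 and 6.14 on the cortex arrays. Hbb-b1 and the other of the 2, Hba-a1, were lowest on cortex replicate 4 and on medulla replicate 3. In kidney tissue Slc4a1 cannot be taken to mark erythrocytes alone. The list mean, which includes Slc4a1, lay between 5.98 and 7.07 in medulla and between 5.80 and 6.87 in cortex. Of 15 measured leukocyte markers 1, the lysozyme gene Lyz2, passed the 2-fold range, beside 2.21% of all genes, with r = 0.29 to the mean profile. Whatever their range, 5 of the 15 (33.3%) were highest on both replicate 4 arrays, namely Cd14, Itgb2, Cd68, Ptprc and Aif1, beside 17.0% of all genes, and they were named after their values were seen. Their r to the mean profile was 0.81, 0.76, 0.75, 0.75 and 0.59 in that order. Cd14, a monocyte receptor gene, read 6.04, 5.57, 6.47 and 7.19 log2 units on the medulla arrays and 6.15, 5.81, 5.77 and 6.48 on the cortex arrays. The leukocyte list mean was highest on medulla replicate 4, at 5.83 against 5.36 to 5.57 on the other medulla arrays, and on cortex replicate 4 it was 5.50, within the 5.22 to 5.51 of the other cortex arrays. The part of leukocytes in the chain levels was not tested.

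Genes of the kidney's own cells were set beside the chains last. Tubular injury genes had 11 followers of 21 measured (52.4%), namely Havcr1, Spp1, Clu, Krt8, Krt18, Cd44, Timp1, Anxa1, Anxa2, S100a6 and Gdf15, and the list mean was 7.81 on medulla replicate 4 and 7.52 on cortex replicate 4, its highest array in each region. The list's median smaller range was 1.10 log2 units. Without both replicate 4 arrays 2 of the list were followers. Havcr1, which is induced in injured proximal tubule, read 4.54, 4.80, 8.95 and 11.32 log2 units on the medulla arrays and 4.59, 5.15, 7.54 and 11.27 on the cortex arrays. Havcr1 shares the order of the chains' high arrays, and its range of 6.79 in medulla and 6.68 in cortex exceeded that of every chain. Clu, the clusterin gene, read 9.22, 8.61, 11.25 and 12.20 on the medulla arrays and 8.78, 8.64, 9.99 and 11.95 on the cortex arrays.

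Thick ascending limb genes ran the other way. Of 8 measured, 6 were opposite (75.0%), namely Umod, Slc12a1, Kcnj1, Cldn10, Egf and Casr, and 1, Ptger3, was a follower. Umod read 11.73, 11.80, 11.36 and 10.54 log2 units on the medulla arrays and 11.89, 11.76, 11.68 and 10.73 on the cortex arrays. The list's median smaller range was 1.13 log2 units. With either replicate 4 array left out 0 of the list were opposite. Of 9 measured inner medulla and collecting duct genes 3 were opposite, Aqp2, Aqp3 and Fxyd4. Of 14 measured proximal tubule genes 1, the glucose transporter gene Slc5a2, was a follower and 0 were opposite. Of 5 podocyte genes 0 were either, beside 0.941% followers and 1.02% opposite among all genes. The part of tubular injury and of tubule composition in the chain levels was not tested.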

How the data were processed

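Per the labels' protocols, biotin-labelled targets made from total kidney RNA were hybridised to whole-transcript arrays. The submitters' processing notes name Affymetrix Expression Console and RMA for the intensity that the authors deposited for each probe set and array, whose versions the sources used here do not give. Values were linear (17.3 to 6229, array medians 34.1 to 34.7), so the deposited intensities were taken to log2 with no pseudocount, and signal near the lowest values limits ranges that start there.

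Of 29870 probe sets the platform annotation named 18511 with 1 symbol, 575 with several genes and 10784 with none here. Entrez identifiers of 18394 were found in RefSeq's GRCr8 gene table, which changed 0 symbols. The brightest probe set per gene gave 18166 genes, with no filter on dim genes. The number of arrays limits the precision, since no read depth exists for arrays.

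Medulla was tested against cortex with lmFit and eBayes of limma 3.58.1 (R 4.3.3, Benjamini-Hochberg over all genes) and with exact permutation tests. Ranges, followers and Pearson r are descriptions, and genes were ranked by r only among those with a 2-fold range in both regions. The procedure was tested on simulated data. Named genes were the chains, the 12 closest and 6 most opposite by r, measured genes up to 4 places from the cluster, up to 4 genes of each pathway list and up to 2 of each other list by the smaller of both ranges, and a fixed set always named; of these 82 the text gives those that illustrate a list, and list members counted as followers or opposite are named as well. The members and lists were chosen with earlier results of these data known. Alternatives were other normalizations, averaged probe sets, a filter on dim genes, arrays left out, other limma settings, other range thresholds and other measures of likeness; leaving out both replicate 4 arrays for ranges and lists was added after the data were seen. Figures were drawn with matplotlib 3.10.9.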

Additional observations from a re-analysis of the deposited data

Results flagged for a closer look

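Each gene of the naming rule was examined in each region for an array whose gap to its nearest neighbour takes up so much of the region's range that it passes Dixon's 95% limit for 4 values. Chance alone picks out about 1 in 20 groups, but many of these genes were chosen for profiles or ranges that rest on the replicate 4 arrays, so the count below is a description and no test of those arrays. Of 164 groups in 82 genes 23 met the limit, 19 of them on cortex replicate 4. Among the chains it was met by Fgg, at 7.64 log2 units on that array where cortex replicates 1 to 3 read 4.46 to 4.77, and not by Fga or Fgb in either region.

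The other genes whose cortex replicate 4 value stood above the rest, relative to the gene's own range, were Ywhah at 9.29, Lif at 8.05, Slc34a2 at 9.82, Ddx52 at 8.81, Clic1 at 9.42, Tnfrsf12a at 8.64, Fgl2 at 6.20 and Fcnb at 5.51 log2 units. So were Tgm2 at 9.28, Osmr at 9.06, Socs3 at 7.51, C3 at 8.32 and Serpina3n at 7.58. Plrg1 at 7.48 and Fgl1 at 4.46 met the limit in narrow cortex ranges of 0.21 and 0.16. Below the rest on that array were Pamr1 at 5.77, Acss2 at 8.41 and Casr at 6.48. On medulla replicate 4, Fcnb stood apart at 5.58 and Ppara at 5.98. On single other arrays, Fetub stood apart at 6.52 on medulla replicate 2 and Alb at 4.59 on medulla replicate 3 in a medulla range of 0.08.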

How the results depend on the processing

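No paired analysis was possible because the labels' array numbers run through both regions and no number is shared between them. The median centring, probe set mean and dim gene filter alternatives moved no result on the chains past its spread, and quantile normalization turned the sign of the medulla minus cortex difference of Fgb, which is near 0, to -0.0009. Genes called between regions numbered 0 under every alternative, including trended robust priors, array weights and an adjusted p under 0.1. With 1 array left out in turn, the medulla minus cortex difference ran from -1.07 to 0.83 for Fga, from -0.98 to 1.11 for Fgb and from -0.52 to 1.01 for Fgg. The medulla range ran from 1.69 to 4.39 for Fga, from 1.48 to 4.55 for Fgb and from 1.01 to 3.38 for Fgg, and the cortex range from 0.86 to 4.26, from 1.08 to 4.83 and from 0.31 to 3.18 in the same gene order, each lowest without the region's replicate 4. Genes with a 2-fold range in both regions then numbered 84 to 379, followers 11 to 167, opposite genes 25 to 183, and genes shared with the 12 closest 0 to 9. Listed followers ranged from 0 to 7 for the interleukin 6 family and from 2 to 11 for tubular injury, and opposite thick ascending limb genes from 0 to 6. Without both replicate 4 arrays, 45 genes had a 2-fold range, 14 were followers and 8 opposite, the listed counts were 0, 2 and 0, and the ranges of the chains in medulla and cortex were 1.69 and 0.86, 1.48 and 1.08, and 1.01 and 0.31. At a 1.5-fold range 1475 genes passed, with 591 followers and 612 opposite, and at a 3-fold range 96 passed, with 52 and 40. Of the 12 closest genes 3 were shared under Spearman's rho and 4 under the root mean square difference. Over 6 arrays 5 were shared, and 6 with Fgg alone as the profile. These 4 rankings kept the genes with a 2-fold range over all 8 arrays. Which property of the replicate 4 arrays moves these counts was not tested.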
